A study of Mus musculus with 49 samples.

Results

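Granule cells are the principal neurons of the dentate gyrus, the entry station of the hippocampus, and 9 genes known to be enriched in them were followed across hippocampal libraries of 49 mice: Prox1, Dsp, C1ql2, C1ql3, Calb1, Tdo2, Dock10, Trpc6 and Stxbp6. They were given by name, with no threshold on their values. On GRCm38 they lie apart, with Calb1 on chromosome 4 from 15881264 to 15908064 and Tdo2 on chromosome 3, and only Prox1, Dock10 and C1ql2 share a chromosome, the first. Each symbol stood on 1 of the 42521 rows of the deposited expression table, and all 9 rows passed the filter on mean level, which left 16029 rows. All mice were C57BLKS/J, 3 months old, and the tissue was whole hippocampus. No genotype other than the strain is given in the labels.

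The series title speaks of maternal obesity, a diet high in fiber and offspring, and the 6 groups carry codes that the labels do not spell out. Here the leading part of a code was taken for the diet of the dam, and the closing letter, C or F, for that of her offspring. The groups were FFD-C, FD-C, HFD-F and CD-F with 8 libraries each, HFD-C with 9 and CD-C with 8. Titles also carry an XX or XY mark, with 24 XX and 25 XY libraries, and 20 prefixes that may stand for litters or dams, which no label states. CD-F and CD-C share no prefix, so that an effect of the offspring code and one of the litter cannot be told apart in that comparison beyond the spread among prefixes. HFD-F and HFD-C share 3 prefixes, which hold all 8 HFD-F and 3 of the HFD-C libraries.

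Granule cells receive cortical input through the perforant path and send mossy fibers to CA3, and they are among the few neurons still born in adult mice. Prox1, a homeodomain transcription factor, specifies and maintains their identity, and loss of Prox1 in mice turns them towards a CA3-like fate. C1ql2 and C1ql3 are secreted C1q-like proteins that granule cells release at mossy fiber synapses, where they help to recruit kainate receptors. Calb1, or calbindin, is a calcium buffer of mature granule cells, and it is also made by superficial CA1 pyramidal cells and some interneurons. Dsp is desmoplakin, a plakin of desmosomes. Tdo2 is a tryptophan dioxygenase, Dock10 an exchange factor for Cdc42 and Rac, Trpc6 a cation channel, and Stxbp6, also called amisyn, a binding partner of syntaxin.

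The upstream sequences of C1ql2 and Dsp are shown because these genes varied together most closely of all pairs with either of them. Each is the stretch of 250 bases before the annotated start, 5′ to 3′ on the strand of the gene, from RefSeq with build GRCm38.p6. Capitals mark E-boxes, the letters CANNTG that basic helix-loop-helix factors such as Neurod1 recognise, which read the same on both strands.
C1ql2, chr1:120340332-120340581, plus strand: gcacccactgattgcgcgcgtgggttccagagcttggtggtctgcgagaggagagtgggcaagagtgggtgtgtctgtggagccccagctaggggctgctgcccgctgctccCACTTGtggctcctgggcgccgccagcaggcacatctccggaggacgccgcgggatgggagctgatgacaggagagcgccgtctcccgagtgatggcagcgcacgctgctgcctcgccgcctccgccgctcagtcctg
Dsp, chr13:38151044-38151293, plus strand: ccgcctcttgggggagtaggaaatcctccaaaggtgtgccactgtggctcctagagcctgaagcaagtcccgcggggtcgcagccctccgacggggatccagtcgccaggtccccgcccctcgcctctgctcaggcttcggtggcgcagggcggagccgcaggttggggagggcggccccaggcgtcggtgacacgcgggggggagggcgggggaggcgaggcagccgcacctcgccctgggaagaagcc
The C1ql2 window held 1 E-box, 138 bases before the start, and the Dsp window held 0. An E-box occurred in 66.2% of the 32851 windows of this length, so its presence is the common case. The windows were rich in G and C, with 72.4% in Dsp and 68.8% in C1ql2, against a median of 52.4% over all windows. Of the 9 genes, 8 had an entry in the promoter table. C1ql3 is not shown, since its RefSeq start lies inside the first exon that GENCODE gives it.

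Levels are given as FPKM, fragments scaled to transcript length and library size, so they can be set against each other between genes. Over the 49 libraries Calb1 had the highest mean, 78.0 ± 18.4 FPKM (SD). C1ql2 averaged 71.3 ± 29.0 FPKM and C1ql3 61.8 ± 15.4 FPKM. Dock10 (26.8 ± 7.85), Stxbp6 (20.7 ± 5.70), Prox1 (17.5 ± 8.09) and Dsp (12.3 ± 6.53) followed, and Trpc6 (1.31 ± 0.399) and Tdo2 (0.952 ± 0.406) were near 1 FPKM. Relative to the mean, Dsp varied most between libraries, with a coefficient of variation of 53.2%, and Calb1 least, with 23.6%.

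1 library stood apart. In FFD-C library 1, Dsp was listed at 0 and C1ql2 at 0.368 FPKM. The lowest of the other 48 libraries, FFD-C library 6 for both genes, held 0.894 FPKM Dsp and 9.05 FPKM C1ql2. Prox1 (1.49 FPKM), Tdo2 (0.166 FPKM) and Dock10 (6.06 FPKM) were also at their lowest of 49 in FFD-C library 1. C1ql3 (81.0 FPKM) and Calb1 (102 FPKM) in the same library ranked 43 and 44 from the lowest. The 8 CA1 pyramidal markers summed to 267 FPKM in it, the lowest of 49, against 296 to 794 FPKM in the others. The 6 neocortical markers summed to 262 FPKM, rank 6 from the highest. Other cell type sets also lay near an end, such as CA2 and choroid plexus markers, each rank 2 from the lowest. Striatal markers (156 FPKM) ranked 5 from the highest. The 11 other granule cell genes named below summed to 506 FPKM, rank 10 from the lowest, against a median of 928 FPKM in the other 48. The part of these marker levels in the low granule cell genes of this library was not tested. Over the 49 libraries, r with Dsp ran from -0.257 (Mpped1) to 0.502 (Gpr161) among CA1 markers. Among neocortical markers it ran from -0.37 (Tbr1) to 0.756 (Scnn1a). FFD-C library 6, of the same group, was second lowest of 49 in Prox1 (5.32 FPKM) and Tdo2 (0.184 FPKM) as well. It held the lowest Trpc6 (0.608 FPKM) and Stxbp6 (8.05 FPKM) of all libraries. In whole tissue, fewer cells of a type and less RNA per cell cannot be told apart.

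**Figure D1:**
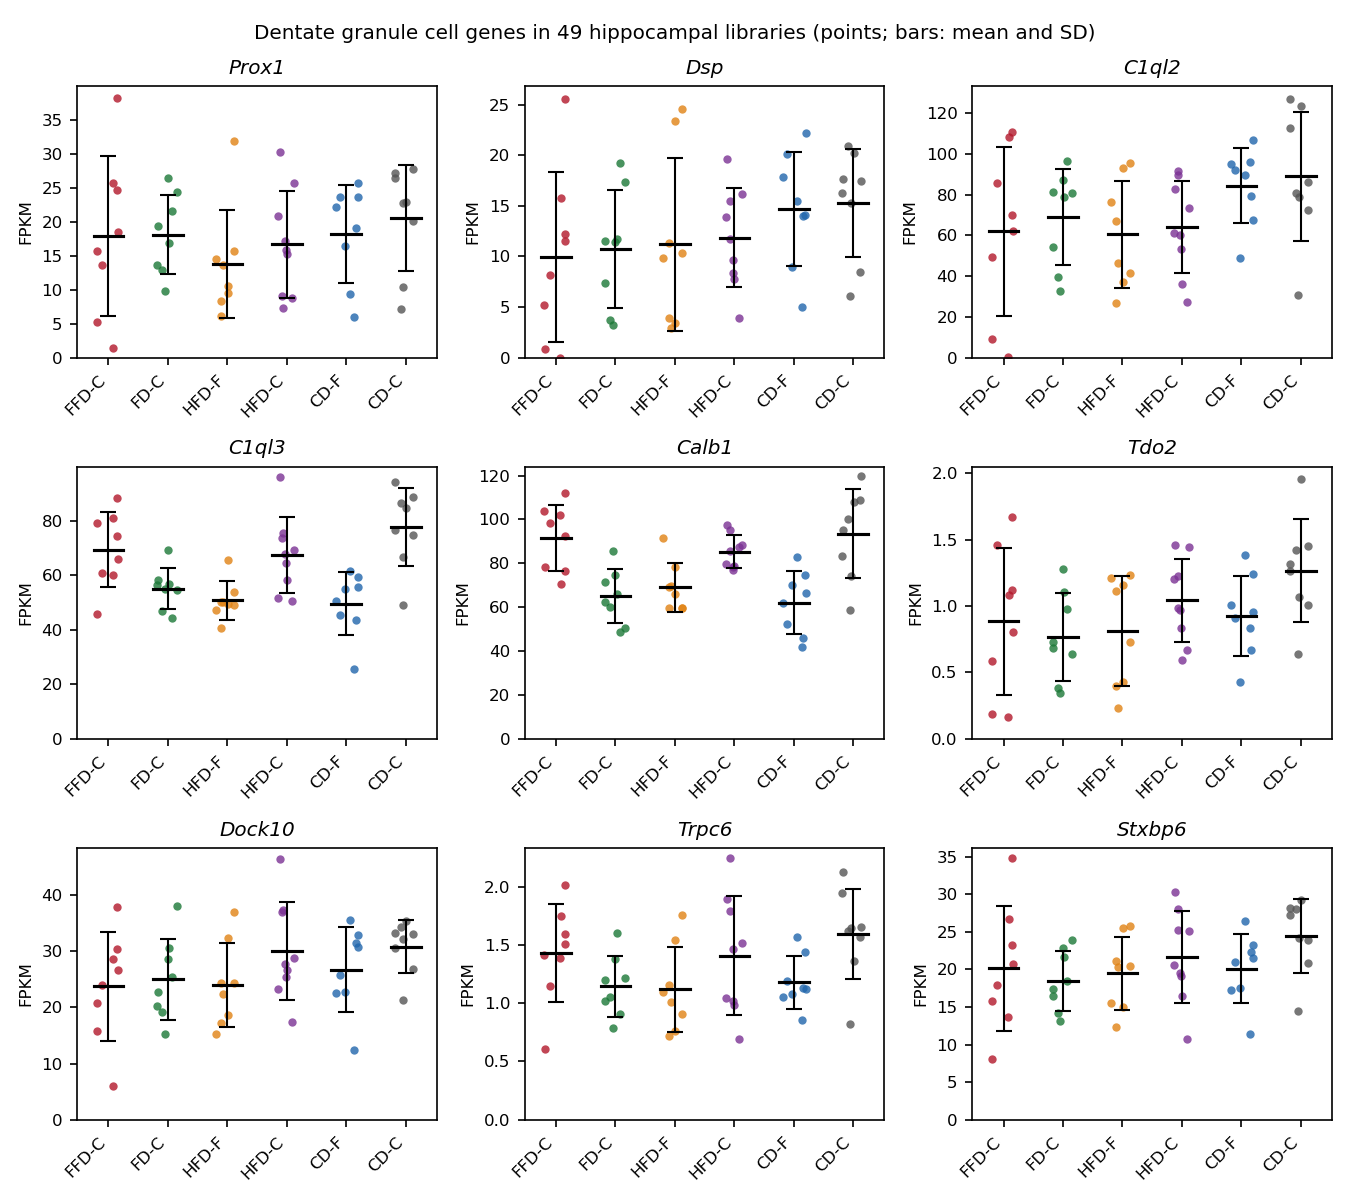
FPKM of each of the 9 genes (y axis) in every library, by group (x axis), with bars for mean and SD over 8 libraries a group and 9 in HFD-C. C1ql3 and Calb1 sit lower in CD-F than in CD-C with some overlap, while Dsp and C1ql2 reach 0 and 0.368 FPKM in FFD-C library 1.

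The comparison of CD-F with CD-C asks what differs with the offspring code under the CD dam code. C1ql3 and Calb1 were lower in CD-F. C1ql3 averaged 49.6 ± 11.5 FPKM in CD-F and 77.7 ± 14.5 FPKM in CD-C (SD, n = 8 each). In CD-F its lowest, median and highest values were 25.6, 52.9 and 61.4 FPKM, against 49.2, 80.8 and 94.2 FPKM in CD-C. The groups overlapped through CD-C library 6 alone, since the next lowest CD-C library held 66.7 FPKM, above every CD-F library. The difference on log2(FPKM + 0.5) was -0.66 (SE 0.143; limma, adjusted p = 0.00144 over all rows), a fold of 0.632.

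Calb1 averaged 62.0 ± 14.3 FPKM in CD-F and 93.6 ± 20.3 FPKM in CD-C (SD, n = 8 each). Its lowest, median and highest values were 41.8, 64.2 and 83.1 FPKM in CD-F, against 58.7, 97.8 and 120.0 FPKM in CD-C. All 8 CD-F libraries lay below the CD-C mean and 3 below the lowest CD-C library, the same counts as for C1ql3. The difference was -0.59 (SE 0.132; limma, adjusted p = 0.00199), a fold of 0.664. CD-F library 8 held the lowest C1ql3 and Calb1 of all 49 libraries, and without it the differences were -0.54 and -0.52, both still past the threshold.

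The remaining 7 genes did not pass the test in this comparison. C1ql2, the close relative of C1ql3, averaged 84.5 ± 18.5 FPKM in CD-F and 89.1 ± 31.7 FPKM in CD-C (SD, n = 8 each). Its difference was -0.01 with a 95% interval from -1.10 to 1.08, wide enough to hold a change of the size seen in C1ql3. Prox1 differed by -0.18 (SE 0.401), Dsp by -0.07 (SE 0.523), Tdo2 by -0.31 (SE 0.213), Dock10 by -0.25 (SE 0.238), Trpc6 by -0.30 (SE 0.153) and Stxbp6 by -0.29 (SE 0.209). The count of 2 in 9 called stands beside a background of 13.4% of all rows called, 8.88% in the lower and 4.54% in the higher direction, and is not far above it.

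Technical values move with these differences. Across 15170 rows with a known transcript, the CD-F against CD-C difference correlated with the GC content of the transcript (Spearman 0.516, across genes, which are not independent replicates). The Calb1 transcript has 36.8% GC and that of C1ql3 53.1%, against a median of 49.9%. With the trend in GC and length removed, the C1ql3 difference was -0.76 (limma, adjusted p = 0.00216), while that of Calb1 was -0.17 (adjusted p = 0.53) and no longer called. With the libraries of a prefix averaged, which left 3 units in CD-F and 4 in CD-C, C1ql3 differed by -0.55 (limma, adjusted p = 0.0723) and Calb1 by -0.47 (adjusted p = 0.0984), neither called.

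Of liver transcripts, 3 of 4 tested were called lower in CD-F, and all 4 estimates were below 0. In CD-C, 4 libraries held more than 1 FPKM of the liver transcript Alb, up to 50.1 FPKM, against at most 0.145 FPKM in CD-F. Without those 4 libraries C1ql3 (-0.59, limma, adjusted p = 0.0351) and Calb1 (-0.60, adjusted p = 0.0174) stayed lower in CD-F, while the differences of Prox1, Dsp and C1ql2 turned positive, at 0.37, 0.24 and 0.36 without being called. The 6 neocortical markers summed to 184 to 268 FPKM in CD-F and 111 to 228 FPKM in CD-C, and the 8 choroid plexus markers to 39.6 to 19430 FPKM in CD-F and 43.9 to 13737 FPKM in CD-C. Of these 14 markers 0 were called, and their part in the differences of the listed granule cell genes was not tested. In FFD-C library 1, C1ql3 (81.0 FPKM) and Calb1 (102 FPKM) were high where Dsp (0), C1ql2 (0.368 FPKM) and Prox1 (1.49 FPKM) were low. Which cells hold the C1ql3 and Calb1 transcripts, and so whether their differences in CD-F lie in granule cells, was not tested.

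**Figure D2:**
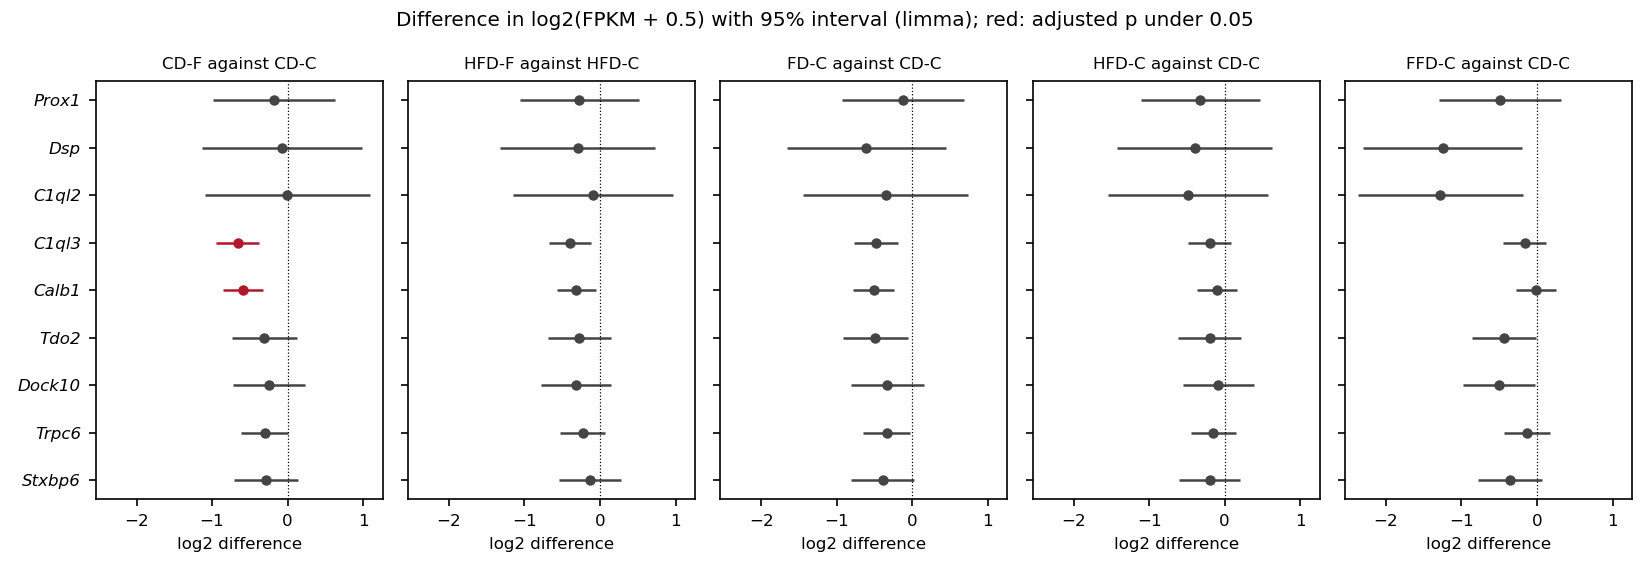
Difference in log2(FPKM + 0.5) (x axis) of each gene (y axis) in 5 comparisons, as estimate and 95% interval from limma, with calls at an adjusted p under 0.05 in red. C1ql3 (-0.66) and Calb1 (-0.59) in CD-F against CD-C are the calls, and the intervals of Dsp and C1ql2 are the widest.

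The same offspring code under the HFD dam code is compared in HFD-F against HFD-C. C1ql3 averaged 50.8 ± 7.07 FPKM in HFD-F (n = 8) and 67.5 ± 14.0 FPKM in HFD-C (SD, n = 9). HFD-F ran from 40.7 through a median of 49.8 to 65.7 FPKM, against 50.5, 67.7 and 96.2 FPKM in HFD-C, and 6 of the 8 HFD-F libraries lay below every HFD-C library. The difference of -0.40 (SE 0.139; limma, adjusted p = 0.126) did not pass. Within the shared prefixes C1ql3 averaged 47.3, 49.7 and 53.1 FPKM in HFD-F, against 69.4, 51.7 and 50.5 FPKM in the 1 HFD-C library of each, so that it was lower in HFD-F in 2 of 3.

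Calb1 averaged 69.2 ± 11.2 FPKM in HFD-F (n = 8) and 85.4 ± 7.57 FPKM in HFD-C (SD, n = 9), with 6 of 8 HFD-F libraries under the lowest HFD-C library at 77.1 FPKM. Its difference was -0.31 (SE 0.129; limma, adjusted p = 0.202). Calb1 was lower in HFD-F within each of the 3 shared prefixes, at means of 64.4, 64.6 and 73.8 FPKM in HFD-F, against 88.5, 79.6 and 87.6 FPKM in the HFD-C library. In every shared prefix the HFD-F and HFD-C libraries also differed in the XX or XY mark. A fit with the prefix and the mark as terms over the 17 libraries of these groups, added after the data were seen, gave -0.33 (SE 0.138; limma, adjusted p = 0.867) for Calb1 and -0.15 (SE 0.173; adjusted p = 0.928) for C1ql3. That fit called 0 of the 9 genes and 0.00624% of rows, with 5.57% of rows at an unadjusted p under 0.05.

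Without the prefix term, limma called 0 of the 9 genes, where 1.67% of all rows were, and 2 (C1ql3 and Calb1) had an unadjusted p under 0.05, where 16.6% of all rows did. Over all rows the HFD-F against HFD-C difference correlated with transcript GC (Spearman 0.465). With the trend in GC and length removed, limma called 64 rows, against 268. The difference between the offspring-code effects under the HFD and CD dam codes was 0.27 (95% interval -0.14 to 0.67) for C1ql3 and 0.28 (-0.09 to 0.65) for Calb1, both with a limma adjusted p of 1, so the effects were not shown to differ. In that test 0% of rows were called and 2.75% had an unadjusted p under 0.05. HFD-F against CD-F gave 0.07 (SE 0.143) for C1ql3 and 0.18 (SE 0.132) for Calb1, with 0% of rows called and 8.27% at an unadjusted p under 0.05.

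In FD-C against CD-C, which differ in the dam code, C1ql3 and Calb1 were again the genes with the smallest p of the 9 without passing. Calb1 averaged 65.0 ± 12.3 FPKM in FD-C and 93.6 ± 20.3 FPKM in CD-C (SD, n = 8 each), a difference of -0.51 (SE 0.132; limma, adjusted p = 0.0953). Among the alternatives run it passed only without CD-C library 6 (-0.60, adjusted p = 0.0287). C1ql3 averaged 55.1 ± 7.55 FPKM in FD-C and 77.7 ± 14.5 FPKM in CD-C, a difference of -0.48 (SE 0.143; limma, adjusted p = 0.155). All 8 FD-C libraries lay below the CD-C mean in both genes. The CD-C libraries are those of the CD-F comparison. Over all rows the FD-C against CD-C difference also correlated with transcript GC (Spearman 0.452). Limma called 32 rows, 0 with the trend in GC and length removed, and 1 without the CD-C libraries with Alb. Limma called 0 of 9 genes and 0.2% of rows, and 4 of 9 had an unadjusted p under 0.05 (Tdo2 and Trpc6 besides), against 9.54% of rows.

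HFD-C against CD-C, which also differ in the dam code, gave differences between -0.48 (C1ql2, SE 0.526) and -0.08 (Dock10, SE 0.232), and limma called 0 of the 9 genes, with 0 at an unadjusted p under 0.05. It called 0% of all rows, with 2.36% at that unadjusted p. C1ql3 differed by -0.20 (SE 0.139) and Calb1 by -0.10 (SE 0.129), with values of 77.1 to 97.6 FPKM for Calb1 in HFD-C inside the CD-C range of 58.7 to 120.0 FPKM.

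FFD-C against CD-C held the largest estimates of the 9 genes in any comparison, and they rest in part on FFD-C library 1. The next lowest Dsp (0.894 FPKM) and C1ql2 (9.05 FPKM) were both in FFD-C library 6. C1ql2 differed by -1.28 (SE 0.541) and Dsp by -1.25 (SE 0.523), both with a limma adjusted p of 0.999. In this comparison 0 of 9 genes and 0.00624% of rows were called, and 4 of 9 (Tdo2 and Dock10 besides) had an unadjusted p under 0.05, against 3.29% of rows. Dsp in FFD-C was listed at 0, 0.894, 5.21, 8.12, 11.5, 12.2, 15.8 and 25.6 FPKM, against 6.05 to 20.9 FPKM in CD-C. FFD-C therefore held both the lowest and the highest Dsp of all libraries. Without library 1, C1ql2 averaged 70.8 ± 35.6 FPKM over the other 7 FFD-C libraries, and the differences were -0.53 for C1ql2 and -0.74 for Dsp. C1ql3 (69.4 ± 13.9 FPKM in FFD-C, 77.7 ± 14.5 FPKM in CD-C; difference -0.16, SE 0.143) and Calb1 (91.7 ± 15.0 FPKM in FFD-C, 93.6 ± 20.3 FPKM in CD-C; difference -0.01, SE 0.132) differed by less than the spread between libraries.

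FFD-C against HFD-C, where 0% of rows were called and 5.96% had an unadjusted p under 0.05, gave -0.85 (SE 0.509) for Dsp and -0.80 (SE 0.526) for C1ql2. Without library 1 these were -0.35 and -0.06. C1ql3 differed by 0.04 (SE 0.139) and Calb1 by 0.09 (SE 0.129) between FFD-C and HFD-C.

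A test for any difference among the 6 groups called Calb1 (limma F-test, adjusted p = 0.000923) and C1ql3 (adjusted p = 0.00242), with 12% of rows called. With means per prefix the same test called 0 of the 9 genes, and with the trend in GC and length removed 1, C1ql3. Ordered by mean level, Calb1 was lowest in CD-F (62.0 FPKM) and then FD-C (65.0), HFD-F (69.2), HFD-C (85.4), FFD-C (91.7) and CD-C (93.6 FPKM). C1ql3 was lowest in CD-F (49.6 FPKM) and then HFD-F (50.8), FD-C (55.1), HFD-C (67.5), FFD-C (69.4) and CD-C (77.7 FPKM). Each step between neighbours was smaller than the larger SD of the pair, except the step of Calb1 between HFD-F and HFD-C. C1ql2 followed another order, with means of 60.5 to 68.9 FPKM in HFD-F, FFD-C, HFD-C and FD-C, 84.5 FPKM in CD-F and 89.1 FPKM in CD-C.

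XX against XY libraries gave 0 calls among the 9 genes by limma, with 0.112% of rows called, and 0 at an unadjusted p under 0.05, where 8.25% of rows lay. C1ql3 differed by 0.05 (SE 0.082) and Calb1 by 0.03 (SE 0.076).

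All 9 estimates were below 0 in HFD-C, FD-C, FFD-C and CD-F against CD-C, with medians of -0.20, -0.39, -0.44 and -0.29, where 47.2% to 54.9% of all rows were below 0. These comparisons share the CD-C libraries, so 1 set of values enters them all, and under other settings the sign of Prox1, Dsp, C1ql2, Calb1, Tdo2, Dock10 and Trpc6 each turned in at least 1 of them, while those of C1ql3 and Stxbp6 did not. HFD-F against HFD-C, with no CD-C library, also had 9 of 9 below 0 (median -0.27; 49.9% of all rows), with C1ql2 at -0.09 (SE 0.526) turning positive without HFD-C library 4 or HFD-F library 2. With the prefix as a term, Dsp (0.025), C1ql2 (0.32), Dock10 (0.085), Trpc6 (0.12) and Stxbp6 (0.22) were above 0 in that comparison. Most of the 9 genes also varied together from library to library, so their signs are not separate observations in any of these comparisons.

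Within groups, all of the genes but Calb1 varied together from library to library in most of their pairs. After removal of group and mark means, Dsp correlated with C1ql2 at Pearson r = 0.871 (Spearman 0.817; n = 49, permutation p = 1e-05, the smallest 100000 resamples allow; adjusted over 36 pairs p = 1.8e-05). Leaving out the 2 farthest libraries gave r = 0.829, and within prefix and group r was 0.875. Dsp also went with Dock10 (r = 0.856, Spearman 0.779) and Tdo2 (r = 0.849, Spearman 0.813), and Trpc6 with Stxbp6 (r = 0.875, Spearman 0.857), each with permutation p = 1e-05. Of the 36 pairs 28 passed at an adjusted p under 0.05 by Pearson's r and 26 by Spearman's rho. By Pearson's r these were all 21 pairs without C1ql3 and Calb1, and 7 of the 8 pairs of C1ql3. The share of all row pairs that would pass was not computed, so these counts have no background beside them. Of 14628 rows ordered by r, C1ql2 ranked 10 for Dsp. For C1ql3, however, Dsp ranked 1034 and Prox1 2154, so many other rows were as close or closer to it.

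Calb1 did not follow them. It correlated with Dsp at r = -0.01 (Spearman -0.11, permutation p = 0.969, adjusted p = 0.995), with C1ql2 at r = -0.001 (Spearman 0.01, p = 0.995, adjusted p = 0.995) and with Prox1 at r = 0.04 (Spearman 0.03, p = 0.78, adjusted p = 0.826). Its only pair past the threshold was C1ql3, at r = 0.663 (Spearman 0.651, permutation p = 1e-05, adjusted p = 1.8e-05; r = 0.556 without the 2 farthest libraries, 0.55 within prefix and group). C1ql3 correlated with Stxbp6 at r = 0.695 and Trpc6 at 0.694 (Spearman 0.562 and 0.645, permutation p = 1e-05 each), and with Dock10 at 0.516 (Spearman 0.528, permutation p = 0.00022, adjusted p = 0.00033). Its r was 0.41 to Dsp (Spearman 0.292, permutation p = 0.00375, adjusted p = 0.00503), 0.404 to Tdo2 (Spearman 0.382, p = 0.00377, adjusted p = 0.00503) and 0.309 to Prox1 (Spearman 0.256, p = 0.0314, adjusted p = 0.0404). The pairs with Dsp and Prox1 did not pass by Spearman's rho. The pair with C1ql2 did not pass by either measure (r = 0.209, Spearman 0.274, permutation p = 0.146, adjusted p = 0.175). Without FFD-C library 1, where C1ql2 is near 0 and C1ql3 high, r was 0.429 to C1ql2, 0.547 to Dsp and 0.691 to Dock10. Some pairs of the other genes fell without that library. Prox1 with C1ql2 went from 0.701 to 0.565, Prox1 with Dock10 from 0.676 to 0.558 and C1ql2 with Dock10 from 0.77 to 0.658. As a check of the label, Calb1 varied with C1ql3 but its other pairs did not pass.

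**Figure D3:**
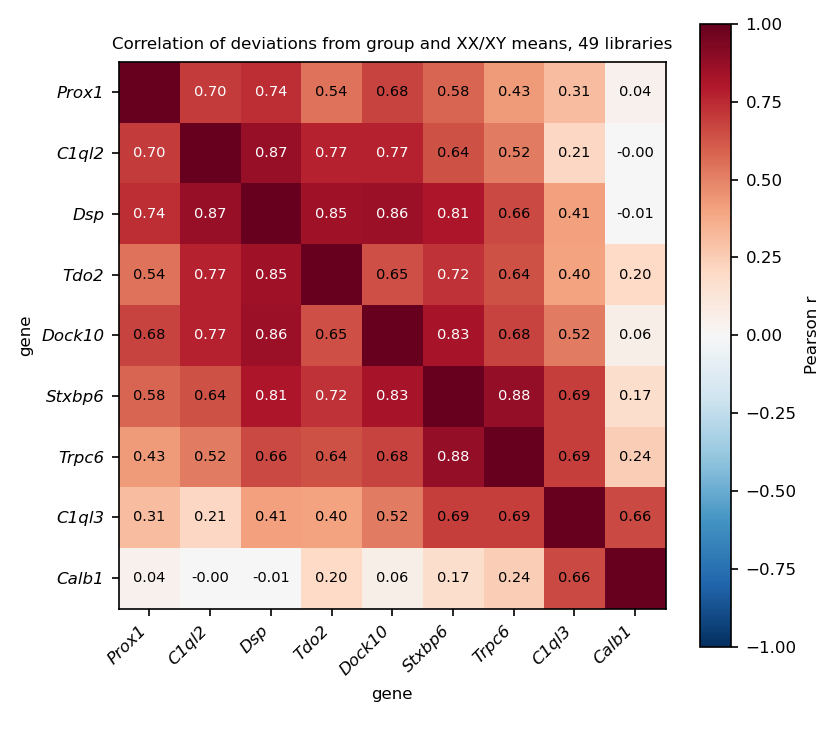
Pearson r of each pair of genes (rows and columns) over 49 libraries, on log2(FPKM + 0.5) less group and XX/XY means. The block from Prox1 to Trpc6 is positive throughout, up to 0.875 for Trpc6 with Stxbp6, while Calb1 is near 0 with Dsp, C1ql2, Prox1 and Dock10 and 0.663 with C1ql3.

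**Figure D4:**
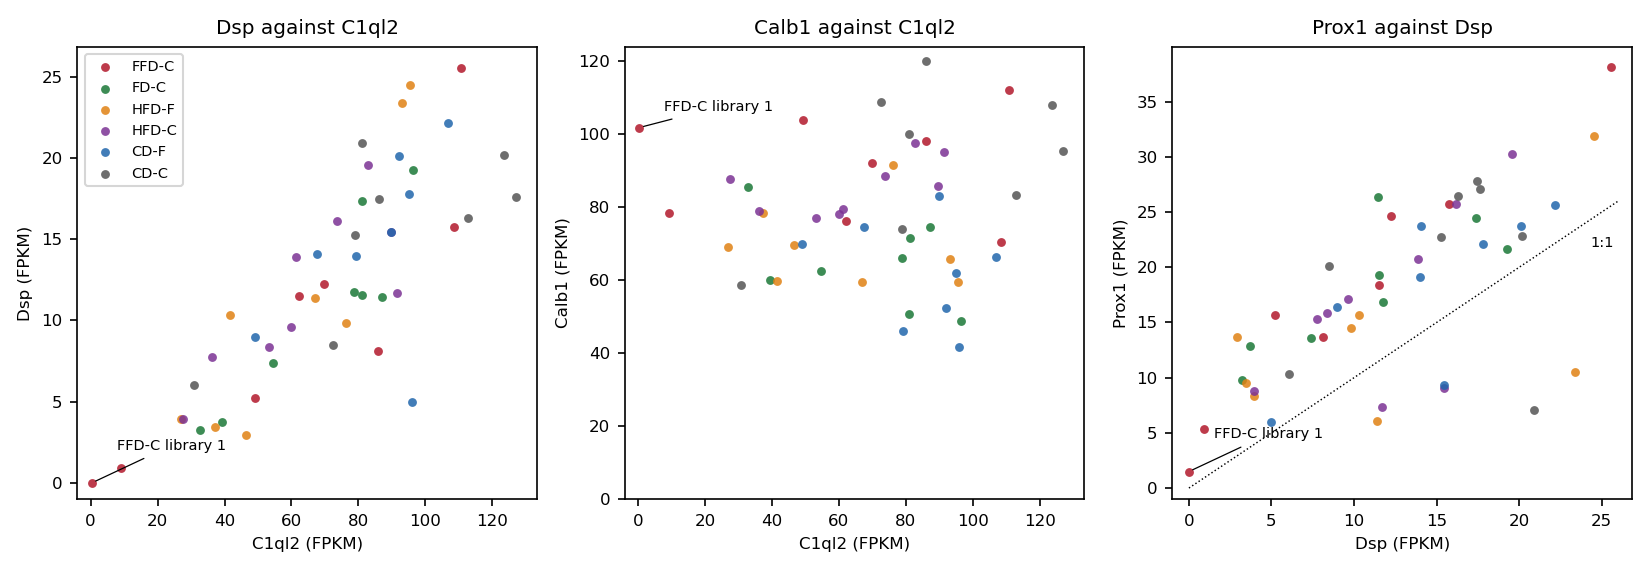
FPKM of Dsp and of Calb1 against C1ql2, and of Prox1 against Dsp (dotted line: equal FPKM), 1 point a library, coloured by group. Dsp rises with C1ql2, Calb1 does not, FFD-C library 1 lies at 0.368 FPKM C1ql2 with 102 FPKM Calb1, and 6 libraries fall far below the line of Prox1 against Dsp.

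The ratio of Prox1 to Dsp had a median of 1.59 and departed from it on both sides. Its highest values were 5.95 in FFD-C library 6, 4.70 in HFD-F library 3 and 3.47 in FD-C library 6. At the low end, Prox1 lay below Dsp in 6 libraries. Their Prox1 was 6.10 to 10.5 FPKM at a Dsp of 11.4 to 23.4 FPKM, a ratio of at most 0.627, whereas every other library with Dsp above 0 had a ratio of at least 1.12. They were 2 HFD-F, 2 HFD-C, 1 CD-F and 1 CD-C library, so no group held most of them. The row of Prox1os, a transcript antisense to Prox1 whose gene overlaps its first bases, had 1.38 to 2.28 FPKM in these 6 libraries and 0.256 to 2.56 FPKM in the others. Strand use in counting is not given in the sources used here, and reads of the overlap cannot be assigned to either gene. Prox1 lies on chromosome 1 from 190118035 to 190170714 (minus strand, GRCm38, GENCODE).

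Rows outside the 9 that varied most like them, by mean r over the 9 genes and 49 libraries, were led by Sema5a (0.708), a semaphorin of granule cells. Ccdc85a (0.690), Slc26a10 (0.689), Npnt (0.686) and Neurod1 (0.681), the helix-loop-helix factor of granule cell differentiation, followed, and for each of the top 10 the lowest r was with Calb1. For single genes, Dsp was most like Sema5a (r = 0.938), Dock10 like Ccdc85a (0.901) and Tdo2 like Mcm6 (0.888). C1ql3 was most like Npy1r (0.812) and Prox1 like Fam160a1 (0.780). These values describe the libraries, which share tissue composition, and no test goes with them.

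The 11 other granule cell genes examined (Pdyn, Lct, Plk5, Npnt, Il16, Rfx3, Glis3, Sipa1l2, Maml2, Sema5a and Fam163b) had 0 calls in every comparison. In CD-F against CD-C their median difference was -0.11, with 8 of 11 below 0, beside 47.2% of all rows. Maml2 had the smallest p (-0.24, SE 0.150; limma, adjusted p = 0.315). Their largest estimates were in FFD-C against CD-C, where 11 of 11 were below 0 with a median of -0.50, beside 54.9% of all rows. There Lct differed by -1.29 (SE 0.554; limma, adjusted p = 0.999). Across libraries Lct varied with Dsp (r = 0.905), so the estimates of these genes are not independent of those of the 9. Estimates of the 11 without FFD-C library 1 are not given here.

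Of the adult neurogenesis genes, 3 of 9 tested were called lower in CD-F against CD-C, beside 8.88% of all rows called lower. Summed over the list, the median was 213 FPKM in CD-F and 219 FPKM in CD-C. Whether they report newborn granule cells was not tested. Sox11, a factor of immature neurons, averaged 1.82 ± 0.708 FPKM in CD-F and 3.36 ± 0.470 FPKM in CD-C (difference -0.78, SE 0.152; limma, adjusted p = 0.000568). Sox4 (-0.36, SE 0.104; adjusted p = 0.0163) and Neurod1 (-0.50, SE 0.174; limma, adjusted p = 0.0446) were also called. Of the mossy cell markers, Calcrl was lower (-0.55, SE 0.161; limma, adjusted p = 0.0177), 1 of 4. With the trend in GC and length removed, Sox11 and Sox4 kept the call, and Neurod1 and Calcrl did not (adjusted p = 0.309 and 0.439, limma). With means per prefix, Sox11 (limma, adjusted p = 0.0451) and Calcrl (adjusted p = 0.0478) kept it, while Sox4 (-0.32, adjusted p = 0.154) and Neurod1 (-0.38, adjusted p = 0.347) did not.

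Over 8 lists of partners and relatives of the 9 proteins, 9 of 48 genes tested were called in CD-F against CD-C, 5 higher and 4 lower. That is 18.8%, beside 13.4% of all rows. Of these, 0 of 7 tested partners and relatives of the C1q-like proteins, 0 of 3 kynurenine pathway genes, 0 of 6 TRPC channels and 0 of 5 calcium buffers were called. Among 6 desmosome genes, Jup (0.57, SE 0.163; limma, adjusted p = 0.0154) and Evpl (0.81, SE 0.252; adjusted p = 0.0244) were higher in CD-F, while Dsp was not called. Among 6 relatives and targets of Dock10, its close relative Dock11 was lower, at 2.36 ± 1.19 FPKM in CD-F and 4.06 ± 0.644 FPKM in CD-C (-0.78, SE 0.201; limma, adjusted p = 0.00642). Pak3 (-0.48, adjusted p = 0.0103) was lower and Pak1 (0.20, adjusted p = 0.0479, limma) higher.

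Among SNARE genes around amisyn, Vamp2 (0.24, SE 0.081; limma, adjusted p = 0.043) was higher in CD-F than in CD-C. Of 8 Prox1 partners and dentate transcription genes, Tcf4, a helix-loop-helix partner, was lower with Neurod1, at 363 ± 99.97 FPKM in CD-F and 506 ± 41.8 FPKM in CD-C (-0.53, SE 0.126; limma, adjusted p = 0.00387). Called markers of glia were Aldh1l1 of astrocytes (0.33, adjusted p = 0.0265, 1 of 6) and Csf1r of microglia (0.41, limma, adjusted p = 0.00388, 1 of 5), both higher in CD-F, where 4.54% of all rows were called higher. Of the 14 called genes of these lists, 5 kept the call with the GC and length trend removed, 6 with prefix means and 3 (Sox11, Sox4 and Tcf4) without the 4 libraries with Alb. Neurod1, Aldh1l1, Evpl, Pak1, Calcrl and Vamp2 each lost the call without at least 1 single library. Markers of CA1, CA2 and CA3 pyramidal cells and of GABAergic interneurons had 0 calls in this comparison.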

How the data were processed

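RNA sequencing libraries of hippocampus were made from RNA extracted with phenol-chloroform and run on BGI-500, per the labels' protocols. The tools named, without their roles, in the submitters' processing notes are Trimmomatic 0.38, StringTie 1.3.4d and HISAT2, and the build is GRCm38.p6. The authors deposited 1 table of FPKM, which scales fragments by transcript length and library size. Columns summed to 1220340 to 1340551 FPKM; read totals, and so depth and counting error, are unknown, and strand use is not given in the sources used here. No columns were identical. Whether replicates are separate litters is not stated, so p-values measure the spread between these samples.

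Differences were computed with limma 3.58.1 in R 4.3.3 on log2(FPKM + 0.5), which understates changes of low genes, for rows averaging 0.5 FPKM or more. The model held all 49 libraries, 6 group terms and the chromosome mark of the title, and variances were moderated along a trend. P-values are two-sided and adjusted by Benjamini-Hochberg over 16029 rows, with a threshold of 0.05; fold is 2 to the power of the log2 difference. The procedure was run on simulated data with independent noise for each row and library. These data held no prefixes and no GC trend, so they cannot test calls that depend on either. Correlations used residuals of that model and 100000 permutations (scipy 1.17.1). Promoter windows came from RefSeq, overlaps from GENCODE on the same build.

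The 9 genes and all lists were chosen with earlier results of these data known. The text names all 9, the rows most like them (mean of at least 1 FPKM), and up to 4 called genes a list, or the 2 with the smallest p; a few of these are not reported here. Alternatives were other pseudocounts, filters, scalings, models and left-out libraries.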

Additional observations from a re-analysis of the deposited data

Results flagged for a closer look

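Of 54 combinations of gene and group, 1 held a library far from the others of its group: Prox1 in HFD-F library 4, at 31.9 FPKM, with the next highest HFD-F library at 15.7 FPKM. Its gap took up 0.627 of the range of the group, above the critical value of 0.526 for 8 samples. By chance about 1 in 20 groups is marked this way, so 1 in 54 is no pattern. In the same library Dsp was 24.5 FPKM and C1ql2 95.5 FPKM, both the highest of HFD-F.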

How the results depend on the processing

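In CD-F against CD-C both calls held under 11 of 13 processing alternatives and without each of the 16 libraries in turn, where C1ql3 differed by -0.75 to -0.54 and Calb1 by -0.68 to -0.52. With means per prefix 0 of 9 genes were called and with the GC and length trend removed 1 (C1ql3); the test over 6 groups gave the same 0 and 1. The fall in calls over all rows under these settings was to 957 and 1012, against 2151; it was 1426 with only the groups compared and 1234 without libraries with Alb. In FD-C against CD-C the count ran from 0 to 1 when single libraries were left out. Of the 14 called list genes, leaving out 1 library kept 9 to 14.

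Signs of uncalled estimates turned as follows. Without libraries with Alb, against CD-C: HFD-C Prox1 0.21, Dock10 0.034, Trpc6 0.012; FD-C Prox1 0.42, C1ql2 0.017; FFD-C Prox1 0.054, Trpc6 0.036; CD-F Prox1 0.37, Dsp 0.24, C1ql2 0.36. With means per prefix: FD-C Prox1 0.004, FFD-C Calb1 0.14, CD-F Prox1 0.024, Dsp 0.13, C1ql2 0.22. Calb1 in FFD-C against CD-C was 0.013 with upper quartile scaling, 0.001 with quantile normalization and 0.08 with the GC and length trend removed. That removal also gave C1ql3 -0.015 in FFD-C against HFD-C, Tdo2 0.025 in CD-F against CD-C, Calb1 -0.08 in HFD-F against CD-F and Calb1 -0.06 in XX against XY. C1ql2 in CD-F against CD-C was 0.004 with the prefix as a random block and 0.003 with upper quartile scaling. The cause was not tested.

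Leaving out single libraries gave ranges across 0. Against CD-C these were Dock10 -0.17 to 0.015 in HFD-C, Prox1 -0.34 to 0.014 in FD-C, and Calb1 -0.10 to 0.046 in FFD-C. In CD-F they were Prox1 -0.39 to 0.048, Dsp -0.27 to 0.15 and C1ql2 -0.23 to 0.11. In FFD-C against HFD-C they were Prox1 -0.37 to 0.21, C1ql3 -0.023 to 0.12, Trpc6 -0.051 to 0.14 and Stxbp6 -0.29 to 0.005. C1ql2 in HFD-F against HFD-C ran from -0.25 to 0.083. In HFD-F against CD-F, C1ql3 ran from -0.06 to 0.12 and Stxbp6 from -0.16 to 0.043, and Calb1 in XX against XY from -0.001 to 0.049.

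Summing rows of a symbol gave no value, since each gene stood on 1 row. The labels carry no replicate numbers, and of the groups compared HFD-F and HFD-C alone share prefixes. With the prefix as a replicate block there, 0 of 9 genes were called, as without it, and the signs of Dsp (0.025), C1ql2 (0.32), Dock10 (0.085), Trpc6 (0.12) and Stxbp6 (0.22) turned. Every correlation past its threshold kept its sign.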
